A study of Rattus norvegicus with 8 samples.

Results

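The adrenergic receptors, which receive noradrenaline and adrenaline, are represented here by 8 genes: Adra1a, Adra1b, Adra1d, Adra2a, Adra2b, Adra2c, Adrb1 and Adrb3. They were chosen by name, as the non-control spots whose gene name in the scanner files is one of these symbols, which gave 12 probes among 41012 and 8 names among 35199. The receptors were proposed with results of the oil against estradiol comparison already known, so their differences between the groups are given as a description. Where it is stated that a receptor passed the threshold of the fit across all genes, this describes the fit and is no test of the receptors.

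Total RNA from the dentate gyrus (DG) of 8 adult female Sprague-Dawley rats was labeled with Cy3 or Cy5 and hybridized to 4 2-colour arrays on a single slide. All rats were ovariectomized and underwent status epilepticus (SE) induced by kainic acid, a glutamate receptor agonist, given at 16 mg/kg and ended after 5 h with pentobarbital per the labels. The 4 COS rats were injected with oil, and the 4 CES rats received 4 doses of 2 μg of estradiol 24 h apart, with doses both before and after SE per the labels. The study's methods instead place all 4 estradiol doses before SE. They also describe less kainic acid, diazepam to stop SE and other collection times. These conflicts cannot be resolved from the files. Each array carried 2 rats of the same group, 1 per dye, with replicates 1 and 3 in Cy3 and replicates 2 and 4 in Cy5. The question put to these samples is how estrogen replacement alters gene expression in the DG after SE, and rats without SE were not analysed here. In tissue RNA, fewer cells of a type and less RNA per cell cannot be told apart.

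Noradrenaline reaches the DG through axons of the locus coeruleus and acts on G protein-coupled receptors of 3 families. The alpha-1 receptors (Adra1a, Adra1b, Adra1d) couple through Gq proteins to phospholipase C, the alpha-2 receptors (Adra2a, Adra2b, Adra2c) couple through Gi and Go proteins and lower cyclic AMP, and the beta receptors (Adrb1, Adrb3) couple through Gs to adenylyl cyclase. Alpha-2 receptors also lie on noradrenergic terminals, where they limit transmitter release.

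The probes are 60 bases long, and 5 of the 8 genes (Adra1a, Adra1d, Adra2c, Adrb1, Adrb3) have a single one. The first 30 bases of the probes behind the results are given 5′ to 3′ as the scanner files hold them, because probes of the same gene did not all behave alike. Positions are those of the files on rn4, and the exon or untranslated region that each probe targets is not given here.
Adra1d, chr3:119280059-119280118: ccaggctgccaaaggggagagccttattta
Adra2c, chr14:81108017-81108076: accaaccagtgtggcttctccagagttcca
Adra1b probe 1, chr10:28945881-28945941: cctgcgcccaatgatgacaaagaatgtggg
Adra1b probe 2, chr10:28890098-28890157: aatcccatcatctacccgtgctccagcaag
Adra1b probe 3, chr10:28889289-28889348: agttcctctattcgtatttatctgtgggta
Adra2b probe 1, chr3:114868648-114868707: agaggtggaagaatgtgaaccccaaacact
Adra2b probe 2, chr3:114870937-114870996: tatcagattttgaaggtgctaagggagttt
Adrb1, chr1:263026686-263026745: ggatcgcctcttcgtcttcttcaactggct
Adra2a probe 1, no position in the files: cattttcaaccacgacttccgccgcgcctt
Adra2a probe 2, no position in the files: tagacacacaggaggggaaattatgtggaa
The probes of Adra1d, Adra2c and Adra1b are listed on the minus strand, and those of Adra2b and Adrb1 on the plus strand. Along the direction of the probe sequence, Adra1b probe 3 starts 809 bases beyond probe 2, and probe 1 lies 55783 bases ahead of probe 2. Adra2b probe 2 starts 2289 bases beyond probe 1.

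Detection came first, as the scanner software's mark for a spot well above background in a rat. Adra1b, Adra1d, Adra2a and Adra2c were detected by at least 1 probe in all 8 rats. Adra2b was detected in 3 of 4 COS and all 4 CES rats, and Adrb1 in 3 of 4 COS and 2 of 4 CES rats. The remaining receptors, Adra1a and Adrb3, were detected in no rat. Between 4 and 6 of the 8 receptors were therefore detected in each COS rat and 5 or 6 in each CES rat, while a COS rat showed 42.6% to 58.3% and a CES rat 44.0% to 62.4% of all names on the array, with Cy5 above Cy3 within each group.

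**Figure D1:**
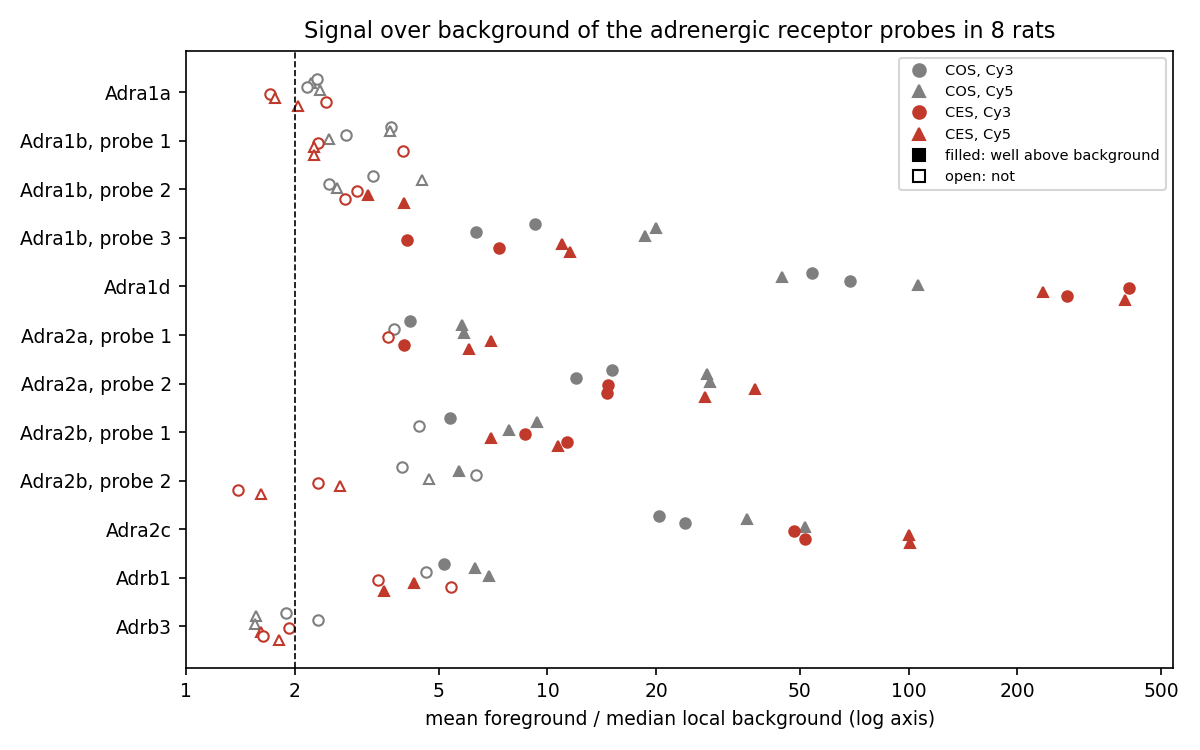
Mean foreground over median local background (log axis) of each receptor probe in each rat, with COS in grey, CES in red, Cy3 as circles, Cy5 as triangles, filled symbols for spots well above background and a dashed line at 2, the least ratio of a valid spot. Adra1a runs from 1.71 to 2.43 and Adrb3 from 1.55 to 2.31, all open, while Adra1d runs from 44.5 to 106 in COS and from 236 to 407 in CES.

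A level was computed for genes with 1 or more valid spots (foreground at least 2 times local background) in all 8 rats, as the log2 of the background-subtracted signal relative to the median of the valid spots of its channel. This held for 6 of the 8 receptors. Adra1a passed in all 4 COS but only 2 CES rats, and Adrb3 in 1 COS rat, so neither has a level or a fold here. Levels of different probes are not set against each other, because probes differ in how strongly they bind.

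Adra1d, an alpha-1 receptor found in hippocampal neurons and in arteries, was the receptor that differed most between the groups. Its level in COS replicates 1 to 4 was 2.99, 1.53, 3.44 and 2.40, and in CES replicates 1 to 4 it was 5.49, 3.92, 5.42 and 4.93. No COS rat reached the lowest CES rat. The COS mean was 2.59 ± 0.83 (SD, n = 4) and the CES mean 4.94 ± 0.72 (SD, n = 4), which differ by 2.35 ± 0.27 (SE) on the log2 scale, or 5.10-fold higher in CES. Within the Cy3 rats the difference was 2.24, and within the Cy5 rats it was 2.46. Of the 21332 genes quantified, 11 had a larger difference toward CES than Adra1d. Among the CES rats, CES replicate 2 had the lowest Adra1d level, and without it the difference was 2.53.

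Adra1b, the alpha-1 receptor with 3 probes, gave a different picture at each probe. Probe 3, well above background in all rats, had levels of 0.33, 0.06, 0.26 and −0.19 in COS and of −0.76, −0.75, −0.26 and −0.35 in CES. All CES rats were below all COS rats at this probe, with a difference of −0.64 ± 0.19 (SE), which was −0.81 within Cy3 and −0.48 within Cy5. Against the median of all probes it was −0.38, and after loess and Aquantile normalization the probe differed by −0.25 ± 0.18 (SE). Over all genes, 21.4% had groups that did not overlap. Probe 2 was well above background in no COS rat and in CES replicates 2 and 4, and its levels were −1.44, −2.36, −1.65 and −3.40 in COS and −1.47, −2.97, −1.29 and −2.04 in CES. The groups overlapped at probe 2, with a difference of 0.27 ± 0.27 (SE), about the size of its error. After loess and Aquantile normalization, with COS rats at no less than the lowest signal detected in their channels, CES was 1.20-fold higher. That CES mean includes replicates 1 and 3, not well above background at this probe, so a direction opposite to probe 3 is not shown. Probe 1 was well above background in no rat, and no fold is given for it. Averaged over the 3 probes, Adra1b differed by −0.40 ± 0.18 (SE), or by −0.15 once the all-gene median was subtracted.

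Adra2c, an alpha-2 receptor, was higher in CES. Which cells of the DG tissue hold its RNA was not tested. Its level was 1.60, 1.31, 2.21 and 1.54 in COS and 2.43, 2.68, 3.53 and 2.73 in CES. No CES rat fell among the COS rats. With a COS mean of 1.66 ± 0.39 (SD, n = 4) and a CES mean of 2.84 ± 0.48 (SD, n = 4), the difference was 1.18 ± 0.25 (SE), or 2.27-fold. It was 1.08 within the Cy3 rats and 1.28 within the Cy5 rats, and 263 genes had a larger difference toward CES.

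Adra2a, an alpha-2 receptor that is widespread in the forebrain, overlapped between the groups at both of its probes. Probe 2, well above background in all rats, read 1.15, 0.80, 1.32 and 0.62 in COS and 1.19, 1.00, 1.65 and 1.02 in CES. The CES mean was higher by 0.24 ± 0.17 (SE), little more than its error. The dimmer probe 1 was well above background in 3 rats of each group, with a difference of 0.05 ± 0.17 (SE). Averaged over both, Adra2a differed by 0.21 ± 0.17 (SE), which is 0.46 above the all-gene median.

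Adra2b, the third alpha-2 receptor, had a pair of probes that did not behave alike. Probe 1 read −0.50, −0.89, −0.41 and −1.40 in COS and −0.56, −1.25, 0.39 and −0.59 in CES. The groups overlapped, with a difference of 0.29 ± 0.25 (SE). Probe 2 was well above background in COS replicate 2 alone, and its foreground reached 2 times background in all COS rats but in only 2 CES rats. Its levels were −1.23, −1.65, −0.67 and −2.51 in COS and −2.64, −3.36, −3.92 and −4.32 in CES, so all CES rats were lower. After loess and Aquantile normalization, with CES rats at no less than the lowest signal detected in their channels, probe 2 was 1.41-fold higher in COS. That COS mean includes the COS rats not well above background. The level of the gene given here rests on probe 1 alone, and with all spots kept the difference turned to −0.20.

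Adrb1, the main beta receptor of the forebrain that raises cyclic AMP, was lower in CES within each dye. Its level was −0.77, −1.53, −0.66 and −1.72 in COS and −1.66, −2.45, −1.02 and −2.37 in CES. The groups overlapped over all rats but not within Cy3 or within Cy5, where the differences were −0.62 and −0.78. Each dye sets only replicates 1 and 3, or 2 and 4, of the groups against each other. So few rats often do not overlap, and the share of all genes that do so within a dye was not computed. Of the Cy3 rats, COS replicate 1 alone was well above background, and all Cy5 rats were. The COS rats averaged −1.17 ± 0.53 (SD, n = 4) and the CES rats −1.87 ± 0.67 (SD, n = 4). The difference, which takes the dye into account, was −0.70 ± 0.18 (SE), and −0.45 against the all-gene median. No fold is given, because the probe was not well above background in every rat. The probe was dim, with a foreground between 3.39 and 6.89 times its background.

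**Figure D2:**
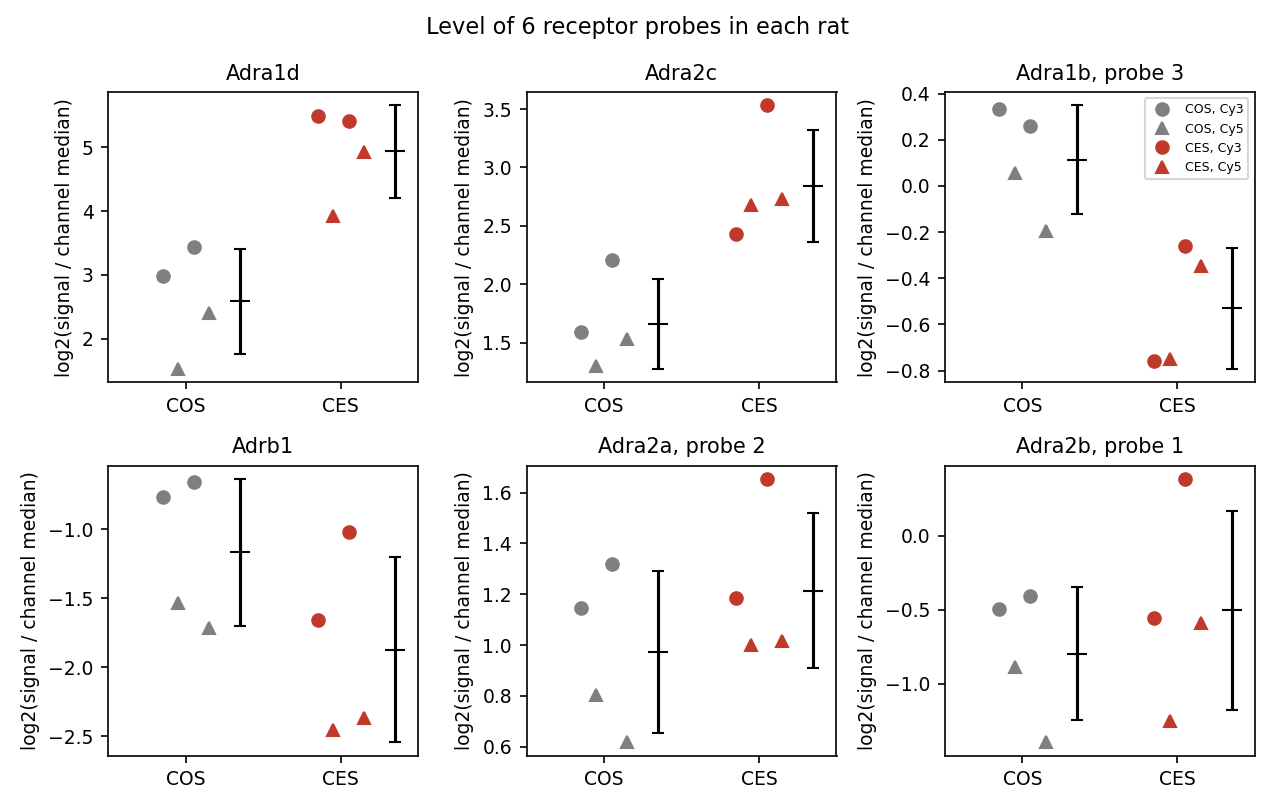
Log2 level relative to the channel median of 6 receptor probes in each rat, with COS in grey, CES in red, Cy3 as circles and Cy5 as triangles; bars give the mean ± SD of the 4 rats, and each panel has its own axis. The CES rats lie above the COS rats for Adra1d and Adra2c and below them for Adra1b probe 3, and the groups overlap for Adrb1, Adra2a probe 2 and Adra2b probe 1.

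In the fit across all genes, 34.1% of 21332 genes passed an adjusted p of 0.05 (limma, Benjamini-Hochberg), with 5.80% higher and 28.3% lower in CES. Of the 6 quantified receptors, Adra1d and Adra2c were among those higher and Adrb1 among those lower, though Adrb1 did not pass without COS replicate 3 or without CES replicate 1. The values of COS and CES did not overlap for 21.4% of genes, and of the 6 receptors they did not overlap for Adra1d and Adra2c. The median difference over the receptors was 0.25, against −0.25 over all genes. As the receptors were chosen with this contrast known, nothing is read from these counts.

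The split between genes higher and lower in CES depended on how channels were scaled. It was 1238 higher and 6038 lower with each channel scaled to the median of its valid spots, the first step of the study's normalization, and 3206 higher and 1840 lower after loess and Aquantile normalization, which moved the median of all genes from −0.25 to 0.08. Against the all-gene median, the receptors hardly moved between these scalings. Adra1d differed by 2.60 from that median under both scalings, Adra2c by 1.43 and 1.46, and Adrb1 by −0.45 and −0.46. Other treatments of background moved Adrb1 more, to −0.19 with normexp background correction and −0.72 with the scanner software's processed signal. Adra1d was then at 2.51 and 2.48. Unadjusted for the median, Adrb1 differed by −0.38 after loess and no longer passed the threshold, while Adra2a differed by 0.59 and did.

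**Figure D3:**
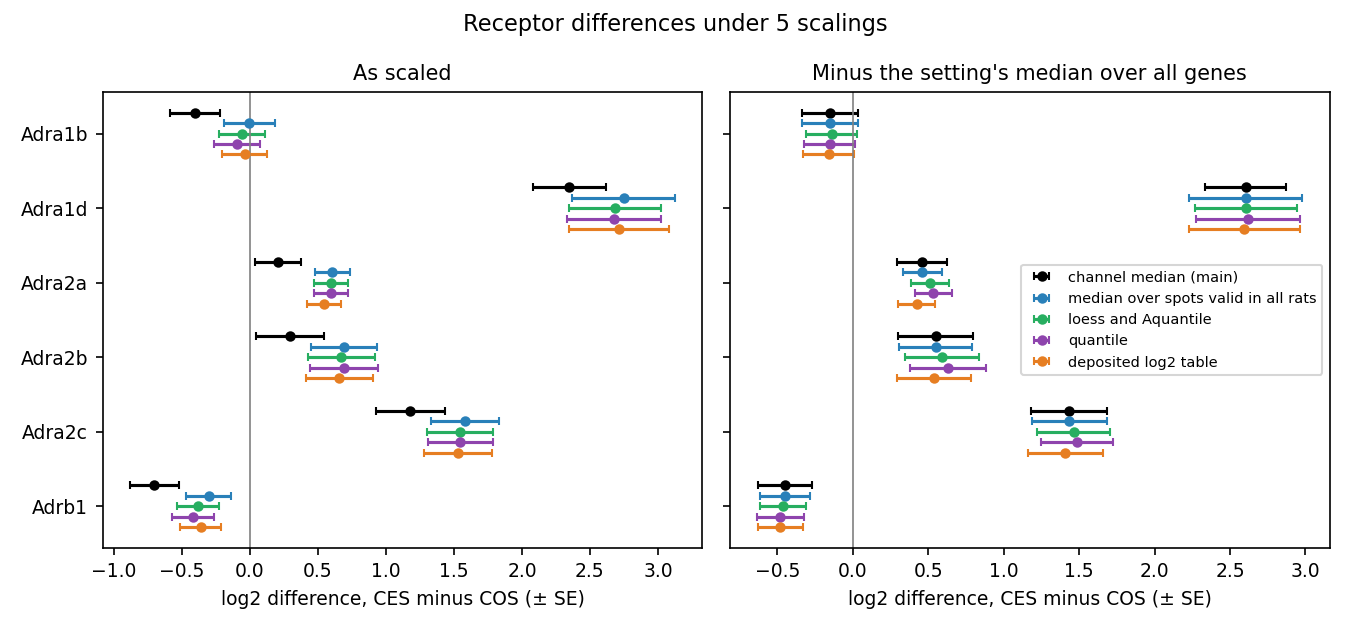
Log2 difference (CES minus COS, ± SE) of the 6 quantified receptors under 5 scalings, as scaled (left) and after subtracting the median over all genes of that scaling (right). On the right the 5 values of each receptor lie close together, with Adra1d between 2.59 and 2.62 and Adrb1 between −0.48 and −0.45. Scalings by the channel median coincide there by construction, as they differ by a constant per channel.

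For the 4 receptors detected in all 8 rats, the genes whose levels ran most alike over the rats were sought among 13679 other genes with a spot well above background in every rat. The 8 rats share dyes, arrays and groups, so Pearson's r is a description here. Adra1d ran closest to Chst9 (r = 0.987), Lhx9 (0.987) and the transcript TC587169 (0.987), of which Chst9 differed by 1.37 ± 0.23 (SE) between the groups and Lhx9 by 1.20 ± 0.22 (SE). Adra2c ran closest to Grb14 (r = 0.973), Ephb6 (0.969) and TC611331 (0.965). These partners of Adra2c were 0.81 ± 0.20, 0.90 ± 0.22 and 0.75 ± 0.16 (SE) higher in CES. Adra1b ran closest to Mxd4 (r = 0.991), Rnd1 (0.988) and Meir5 (0.986), and Adra2a to Htr3a (0.991), LOC100361845 (0.990) and Slc25a10 (0.983). For Adra2a, all Cy3 rats lay above all Cy5 rats.

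The promoters of the receptors that were higher in CES are shown because both genes moved the same way. They are the 250 bases ahead of the start of each gene in RefSeq on GRCr8, both on the minus strand, with capitals for GC boxes (GGGCGG on either strand).
Adra1d, chr3:139262332-139262581: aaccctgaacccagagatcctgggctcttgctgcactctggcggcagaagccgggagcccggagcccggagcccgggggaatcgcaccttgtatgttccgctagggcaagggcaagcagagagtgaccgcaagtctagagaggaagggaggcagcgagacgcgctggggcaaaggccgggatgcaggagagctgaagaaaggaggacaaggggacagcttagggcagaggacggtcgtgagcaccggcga
Adra2c, chr14:79697477-79697726: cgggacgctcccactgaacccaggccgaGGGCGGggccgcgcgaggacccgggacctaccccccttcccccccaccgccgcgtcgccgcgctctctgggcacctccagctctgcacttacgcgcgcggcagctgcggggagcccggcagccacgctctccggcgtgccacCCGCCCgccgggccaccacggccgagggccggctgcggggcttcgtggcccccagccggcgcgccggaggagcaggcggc
Both strands of the 6 quantified receptors' promoters were searched for the estrogen response element (GGTCA and TGACC around 3 bases of any kind), the AP-1 site TGANTCA, the cyclic AMP response element TGACGTCA and the GC box. The GC box matched 2 times in Adra2c and 2 times in Adra2b and in none of the other 4, against 30.5% of 33469 promoters. The other motifs, held by 0.0239%, 6.34% and 1.59% of promoters, had no match in these 6 windows, which says only that the letters are not there.

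The genes around the receptors were taken from lists for the synthesis, transport and breakdown of noradrenaline, the G alpha subunits, desensitisation and the effectors. Of 46 genes listed, 44 were on the array and 39 were quantified, of which 4 passed the threshold higher in CES, 9 passed it lower and 26 did not pass. These 13 of 39 are close to the 34.1% of all genes that passed, where 5.80% were higher and 28.3% lower. Their median difference was −0.08, against −0.25 over all genes. All adjusted p-values that follow are from limma over all genes.

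Among 5 quantified genes for noradrenaline itself, 1 rose and 1 fell. Ddc, which decarboxylates DOPA to dopamine ahead of noradrenaline, was higher by 2.28 ± 0.34 (SE, adjusted p = 0.0039). Maoa, which breaks noradrenaline down, fell by 0.72 on the log2 scale (adjusted p = 0.0353) but did not pass after loess and Aquantile normalization (adjusted p = 0.262). Dbh, which makes noradrenaline from dopamine, and Slc6a2, the noradrenaline transporter, act in noradrenergic neurons. Dbh was well above background in no rat and has no fold. Slc6a2 was well above background in CES replicate 4 alone, and its bound toward CES was 0.80, under 1, so no fold is given. Th, Slc6a2 and Maob did not pass the threshold.

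Of the 7 G alpha subunits on the array, 3 fell and none rose. Gnas, the Gs subunit that beta receptors use, fell by 0.51 (adjusted p = 0.0454), as did 2 of the 4 subunits of the Gi and Go class that alpha-2 receptors use. Gnai2 fell by 0.78 (adjusted p = 0.0115), and Gnai3 fell by 0.86 (adjusted p = 0.00976). The other subunits of that class, Gnai1 at 0.21 ± 0.20 (SE) and Gnao1 at 0.36 ± 0.21 (SE), did not pass the threshold, nor did Gnaq and Gna11 of the Gq class used by alpha-1 receptors. After loess and Aquantile normalization the differences were −0.24 for Gnas, −0.41 for Gnai2 and −0.51 for Gnai3, and none of them passed the threshold in limma (adjusted p = 0.167, 0.0821 and 0.0536).

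Among 8 genes of desensitisation, 3 fell and 1 rose. The RGS proteins, which speed the shut-off of G alpha subunits, fell most. Rgs4 fell by 2.18 (adjusted p = 0.00834), and Rgs2 fell by 1.45 (adjusted p = 0.00914). Grk5, a kinase that phosphorylates active receptors, fell by 1.16 (adjusted p = 0.00485). Adrbk2, another receptor kinase, was well above background in no COS and in 2 CES rats, and its groups overlapped. It passed the threshold higher in CES (adjusted p = 0.0166), also after loess and Aquantile normalization (adjusted p = 0.0297) but not without the dye term (adjusted p = 0.0609). Its bound, from the loess and Aquantile values, was 1.41-fold higher in CES. Adrbk1, Grk6, Arrb1 and Arrb2 did not pass the threshold.

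Of 19 quantified effectors, 2 rose, 2 fell and 15 did not pass. Kcnj6, a potassium channel subunit opened by Gi-coupled receptors, rose by 1.24 ± 0.24 (SE, adjusted p = 0.00577), and Plcb1, a phospholipase C activated by Gq, rose by 0.85 ± 0.20 (SE, adjusted p = 0.0121). Plcb3, another phospholipase of this class, fell by 1.02 (adjusted p = 0.0136) and after loess and Aquantile normalization did not pass (adjusted p = 0.105). Prkar2a, a regulatory subunit of protein kinase A, passed the threshold lower in CES (adjusted p = 0.00546). It was well above background in 1 COS rat and no CES rat, and its bound toward COS was 0.96, under 1, so no fold is given. None of the 7 quantified adenylyl cyclases passed.

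**Figure D4:**
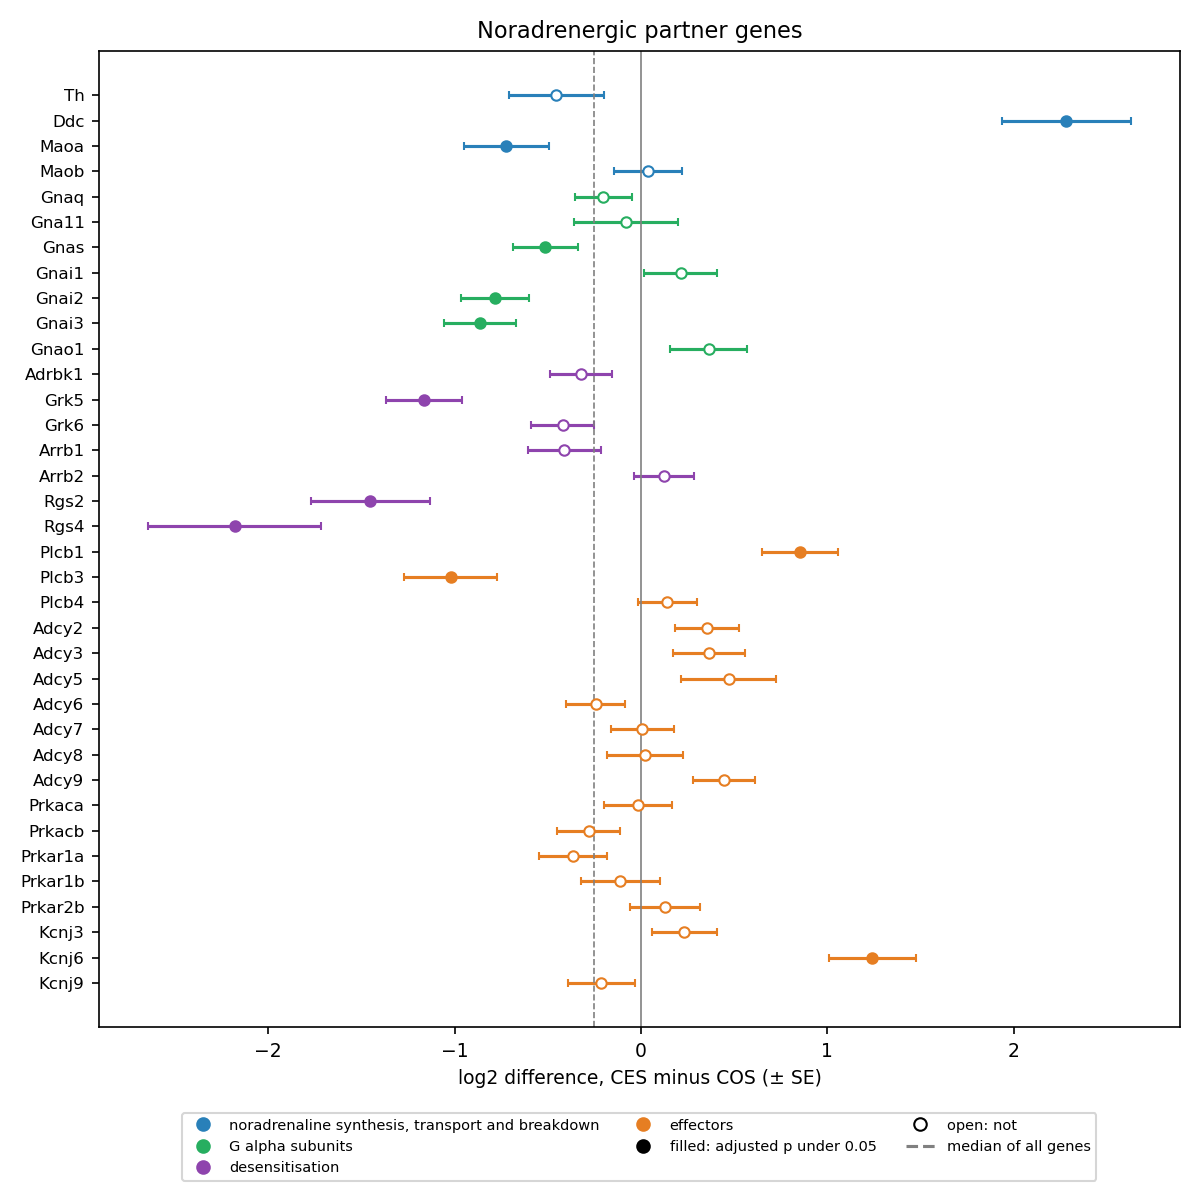
Log2 difference (CES minus COS, ± SE) of the quantified partner genes of the adrenergic receptors, coloured by list, filled where the adjusted p is under 0.05; genes well above background in no rat of a group are left out, and the dashed line is the median of all genes at −0.25. Ddc at 2.28 and Kcnj6 at 1.24 lie farthest to the right, and Rgs4 at −2.18 farthest to the left.

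CES replicate 2 lay nearest to the COS rats for several of these genes. Rgs4 was 4.72 there and 3.07, 2.39 and 2.52 in CES replicates 1, 3 and 4, against 4.94 to 5.94 in COS. Ddc was −0.31 there, whereas the other CES rats had 1.62 to 1.70. Without CES replicate 2, Rgs4 differed by −2.76 and Ddc by 2.68.

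Markers of the cell types that DG tissue can hold moved as well, and their part in the receptor results was not tested. Of the dentate granule cell markers, Calb1, C1ql2 and Dsp were detected in both groups, Prox1 was well above background in no rat, and C1ql2 and Dsp were lower in CES. The summed log2 level of the granule cell list ran from 3.64 to 4.46 in COS and from 3.11 to 3.66 in CES. Both CA1 markers passed the threshold higher in CES, Wfs1 by 0.98 ± 0.22 (SE, limma adjusted p = 0.00961) and Fibcd1. Fibcd1 was well above background in no COS rat and in 2 CES rats, and its groups overlapped. The summed CA1 level ran from 1.92 to 2.29 in COS and from 2.37 to 3.48 in CES. Wfs1, with a mean level of 2.01 in COS and 2.99 in CES, carries most of that sum. Of 4 thalamic markers, Prkcd was lower by 1.90 ± 0.42 (SE, adjusted p = 0.00925), and the list ran from 3.38 to 4.27 in COS and from 1.71 to 3.40 in CES. Prkcd, with a mean level of 3.67 in COS and 1.77 in CES, carries most of that sum. The other thalamic markers did not pass, with Tcf7l2 at 0.07 ± 0.16, Lef1 at −0.42 ± 0.22 and Rora at −0.60 ± 0.25 (SE). The GABA neuron list ran from 7.34 to 8.26 in COS and from 5.92 to 7.13 in CES with 1 of 4 markers, Sst, lower. Sst, with a mean level of 7.51 in COS and 5.96 in CES, carries most of that sum, and Pvalb differed by 0.51 ± 0.20 (SE) without passing. The microglia list ran from 4.29 to 4.92 in COS and from 3.70 to 4.27 in CES with 1 of 3, Itgam, lower. Of the 4 astrocyte markers, Gja1 was higher in CES by 1.27 ± 0.40 (SE), while Gfap went the other way at −1.19 ± 0.44 (SE) without passing. Aqp4 at 0.04 ± 0.18 (SE) and Slc1a2 at 0.31 ± 0.17 (SE) did not pass either. Of the endothelial markers, 1 of 2 quantified (Flt1) was lower, and of the hilar mossy cell, oligodendrocyte and choroid plexus markers none passed. The choroid plexus list spread most within a group, from 3.69 to 9.26 in COS and from 3.97 to 7.59 in CES.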

How the data were processed

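Labeled RNA of 8 rats was read from 4 2-colour Agilent arrays. The authors deposited the scanner software's intensity and background of each spot, extracted with Agilent Feature Extraction 10.7.3.1 per the submitters' processing notes, and a deposited table of log2 values of median signal minus background, with each column's median at 0. Both were used, the second as an alternative. As in the study's methods, a spot was valid with a foreground at least 2 times its background. Mean signal minus background median was divided by the channel median over valid spots, averaged per gene over spots valid in every rat, and log2-transformed, without the iterative renormalization that the methods add. Valid spots numbered 32381 to 38553 in the COS and 30690 to 35352 in the CES rats, of 43379, and no spot was saturated. The number of arrays limits the precision.

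The groups were compared with limma 3.58.1 (R 4.3.3), two-sided, with dye as a fixed term, the array as a random block (statmod 1.5.0) and Benjamini-Hochberg adjustment over 21332 genes at 0.05. The fit was tried on simulated rats in the same layout, with 200 of 21332 genes changed. There it found 91% of changes of size 2 (log2) and 54% of size 1, and 8 of its 153 calls were false. The simulated rats carried no array effect, as the array correlation estimated from the data was slightly negative (−0.00644). Their genes varied independently, without a shift of a whole channel. The simulation therefore cannot show how array effects or channel scaling bear on the calls. The share of false calls among the 7276 genes called in the 8 rats was not tested. A probe not well above background in any rat of a group got a lower bound, from loess and Aquantile values with those rats at the higher of the lowest detected signal and their own. The other group's mean kept all its rats, detected or not, so the bound is not strict. Where it was under 1, no fold is given. Motifs were searched and figures drawn with Python 3.11.15.

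The receptors and gene lists were chosen with earlier results of these data known. Named are all receptors, Dbh and Slc6a2, up to 4 partner genes per list and direction with the largest differences, the 3 genes most like each receptor detected in all rats, and markers that moved. Some genes which that rule or the lists name are not reported here. Alternatives covered background correction, normalization, filters, the terms of the fit, probe choice, naming through RefSeq (17512 of 41012 probes matched), the deposited log2 table, the methods' t-test and leaving out each rat.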

Additional observations from a re-analysis of the deposited data

Results flagged for a closer look

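In groups of 4 rats, the highest or lowest rat was marked when its gap to the nearest rat exceeded Dixon's critical share of the group's range, which chance does in about 1 of 20 groups. Over the 45 genes tested, the receptors and their quantified partners, 2 of 90 groups were marked, and no receptor was among them. Ddc had its lowest CES level in CES replicate 2, at −0.31, with the other CES rats between 1.62 and 1.70, and the gap was 0.962 of the range. Arrb1, which uncouples active receptors, had its highest CES level in CES replicate 3, at −0.01, with the other CES rats between −0.79 and −0.78, and the gap was 0.990 of the range.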

How the results depend on the processing

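Adra1d and Adra2c kept their direction under all alternatives run, with differences between 2.12 and 2.80 and between 0.95 and 1.63. Adrb1 stayed lower in CES, between −1.01 and −0.30, and Adra2a higher, between 0.05 (probe 1 taken alone) and 0.69. Adra2b turned to −0.20 with no filter on valid spots, and Adra1b to 0.27 at probe 2 taken alone, a setting chosen after seeing the data.

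Genes higher and lower in CES numbered 3348 and 1718 with channel medians over the spots valid in all rats (also chosen after seeing the data), 3275 and 1927 in the deposited log2 table, 3206 and 1840 after loess and Aquantile, 3059 and 2227 after quantile normalization, 2223 and 880 over spots well above background in all rats, 420 and 2776 with no filter, 125 and 461 with normexp, and 1272 and 2828 at 3 times background. Partner genes higher and lower, in the same order, numbered 10 and 3, 10 and 5, 10 and 4, 10 and 5, 8 and 3, 2 and 5, 1 and 1, and 4 and 5. No receptor was called lower under any of these 8, and 1 was called higher with normexp. With the brightest probe, 2 receptors were called lower, Adra1b and Adrb1. The methods' t-test called 0 genes, receptors and partners included, after Benjamini-Hochberg adjustment, where limma called 7276 and where 6103 had an unadjusted p under 0.05. Leaving out 1 rat gave 248 to 1837 genes higher and 885 to 7076 lower, lowest both times without COS replicate 3. It gave 2 receptors higher each time and 0 to 2 lower, with 0 without COS replicate 3 or CES replicate 1 and 2 without CES replicate 4. Partner genes then numbered 2 to 5 higher and 1 to 11 lower. The cause of these changes was not tested.

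Of the partner genes, Ddc, Rgs4, Grk5 and Kcnj6 passed under 21 alternatives each, of 22 or 23, and Maoa under 7, Gnas under 8 and Gnai2 under 12 of 23.

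With the replicate number as a block, 1241 genes were called higher and 6624 lower, and the receptors called were 2 and 1 as before. Same-numbered rats share a dye: their deviations from the group means correlated at 0.21 to 0.34, and at −0.06 to −0.04 once the dye was removed, so the numbers were not taken to pair rats. Dim probes limit Adrb1, Adra2b and Adra1b probes 1 and 2.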
